A study of Homo sapiens with 20 samples.

Results

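The BMP and TGF-beta response genes described here are 10 genes selected by their symbols: the receptor decoy *BAMBI*, the inhibitory SMADs *SMAD6* and *SMAD7*, the 4 inhibitors of DNA binding *ID1*, *ID2*, *ID3* and *ID4*, the SMAD co-repressors *SKIL* and *TGIF1*, and the secreted BMP antagonist *CHRDL1*. All 10 were found among the 60623 genes listed for PPs and the 60624 listed for hILOs. *CHRDL1* is not a target of the pathway but one of its extracellular inhibitors, and it is reported with the others because of its course. *BAMBI* and *CHRDL1* were chosen from their measured decay slopes in PPs, so their PP values are given as a description with no test. The other 8 were added for their place in the pathway, with earlier results of these data known. Their tests, counts and medians in PPs are therefore not independent of that choice.

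RNA was sequenced from human islet-like organoids (hILOs) and pancreatic progenitors (PPs) differentiated from the MEL1 INS GFP/W human embryonic stem cell line, which carries a GFP reporter at the *INS* locus. The genotypes were wild type (WT) and a knockout of *ALKBH5* (A5-KO), which encodes an RNA demethylase that removes m6A from mRNA. The knockout was made with CRISPR-Cpf1 and crRNAs against the first exon, which leave small insertions or deletions, and each genotype is represented by a single line. hILOs were untreated, with 2 libraries for each genotype. PPs of both genotypes received the transcription inhibitor actinomycin D (Act D) at 1 μg per ml and were sampled before it (0 h) and 1 h, 2 h and 3 h after. Each genotype and time has 2 libraries, and PPs have 16. Both genotypes were differentiated with activin A in the first days and with LDN-193189, an inhibitor of BMP type I receptors, from the retinoic acid step until the first organoid medium, so PPs were kept under that inhibitor, whereas the last organoid medium did not hold it. Both organoid media held an inhibitor of the TGF-beta type I receptor. The labels do not say whether replicates came from separate differentiations, so a *p*-value measures the spread between these libraries.

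BMPs, activins and TGF-betas bind pairs of type I and type II receptor kinases at the cell surface, which phosphorylate receptor SMADs (SMAD1, SMAD5 and SMAD9 for BMPs, SMAD2 and SMAD3 for TGF-beta and activin). These join SMAD4, enter the nucleus and switch on a set of early target genes, many of which encode inhibitors of the pathway itself. Such feedback mRNAs are typically short-lived, which lets their level follow the signal. In the embryo, BMP signals from the mesoderm favour liver over pancreas in the ventral foregut, which is why BMP inhibitors are used in pancreatic differentiation.

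The promoter and 3′UTR sequences of the members are shown first, because early SMAD targets are known for SMAD-binding elements near the start and short-lived mRNAs for AU-rich elements near the end. The windows of RefSeq (GRCh38.p14) that begin at the start of the MANE transcript were found for all 10 members. The palindromic SMAD element GTCTAGAC occurred in the 250 bases upstream of *SMAD6* and of no other member. It was present in 0.18% of the 35116 upstream windows of the RefSeq table. The GC-rich motif GGCGCC, a known BMP-SMAD site, occurred 3 times upstream of *BAMBI* and once upstream of *SKIL*, and in 16.38% of all windows. The short SMAD box CAGAC was found upstream of 5 members (2 matches each for *BAMBI* and *SMAD7*, 1 each for *ID3*, *ID4* and *SKIL*) and in 38.0% of all windows. All 3 motifs were searched on both strands, and the CAGAC matches of *BAMBI* did not overlap its GGCGCC matches. A match of letters is not evidence of binding, and its absence from these 250 bases says nothing about other regulatory DNA. Below, GGCGCC or GTCTAGAC is in capitals in the bases before the start of *BAMBI* (chr10:28677271-28677520, plus strand) and of *SMAD6* (chr15:66701986-66702235, plus strand). In *BAMBI* the GGCGCC matches began 209, 196 and 181 bases before the start, and in *SMAD6* the palindrome began 12 bases before it.
BAMBI: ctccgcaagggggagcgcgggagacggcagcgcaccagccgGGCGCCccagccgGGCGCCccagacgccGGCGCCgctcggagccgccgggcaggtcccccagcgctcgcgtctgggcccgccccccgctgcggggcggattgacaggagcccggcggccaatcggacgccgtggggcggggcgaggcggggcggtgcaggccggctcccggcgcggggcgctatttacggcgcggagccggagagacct
SMAD6: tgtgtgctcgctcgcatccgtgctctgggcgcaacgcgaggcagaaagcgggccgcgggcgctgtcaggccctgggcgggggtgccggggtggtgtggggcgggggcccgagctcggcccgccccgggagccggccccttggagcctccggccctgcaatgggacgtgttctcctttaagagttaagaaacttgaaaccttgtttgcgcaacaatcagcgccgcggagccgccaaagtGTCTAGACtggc

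In the 3′UTRs of the MANE transcripts (GENCODE, GRCh38), the AU-rich pentamer ATTTA was counted on the transcript strand. *BAMBI* had 5 copies in 531 bases, or 9.42 per kb, above 98.4% of the 18780 3′UTRs of this annotation. *SKIL* had 23 copies in 4418 bases (5.21 per kb) and *SMAD6* had 6 in 1314 bases (4.57 per kb). The other members were nearer to the mean of all 3′UTRs, 2.28 per kb, with *ID3* lowest at 1.94. The longer element TATTTAT, which contains ATTTA, occurred in 32.11% of all 3′UTRs and in those of *ID2*, *ID4*, *SMAD6*, *SMAD7*, *SKIL* and *CHRDL1*. By the share left after 1 h of Act D, given below, the members with the element differed. It was present in the fast-falling *SMAD7* and *ID4* mRNAs, the slower *SKIL*, *ID2* and *SMAD6* mRNAs and the *CHRDL1* mRNA, which did not fall. It was absent from the fast-falling *BAMBI* and *TGIF1* mRNAs and the slower *ID1* and *ID3* mRNAs. A link between the element and decay was not tested. The first TATTTAT of the members is shown in capitals, at chr2:8683876-8683903 (plus) for *ID2*, chr15:66781727-66781754 (plus) for *SMAD6*, chr18:48920038-48920065 (minus) for *SMAD7* and chrX:110674059-110674086 (minus) for *CHRDL1*. The sites of the paralogues *SMAD6* and *SMAD7* were identical at 21 of the 28 bases shown.
ID2: tgatattcgtTATTTATgaaaaagactt
SMAD6 site: acaatgtaatTATTTATgtatggtgcaa
SMAD7: taagcatcatTATTTATgtattgtgcaa
CHRDL1: tcttcttgtgTATTTATttgtatcataa

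The levels of the members spanned a wide range. TPM divides each gene by its length, so genes can be compared with one another in hILOs. In WT hILOs *ID2* was highest at 308 ± 11.5 TPM (SD, n = 2 here and below), followed by *ID1* at 172 ± 4.03 and *ID3* at 130 ± 8.47. A second tier held *BAMBI* at 20.3 ± 0.577, *TGIF1* at 14.6 ± 1.78 and *ID4* at 12.8 ± 0.945 TPM, with *TGIF1* and *ID4* overlapping. *CHRDL1* at 5.76 ± 0.826 and *SKIL* at 5.65 ± 0.0163 TPM could not be ordered, nor could *SMAD6* at 2.45 ± 0.621 and *SMAD7* at 1.83 ± 1.46. In PPs the files give CPM (reads scaled to the library total, with no length correction), which was divided here by the length of the MANE transcript to order the genes. At 0 h in WT, *ID3* had 179 ± 17.1, *ID1* 165 ± 13.7 and *ID2* 116 ± 17.9 CPM per kb, and *ID3* and *ID1* overlapped. *TGIF1*, *CHRDL1* and *ID4* followed at 13.84, 12.98 and 10.04 CPM per kb. *BAMBI* (6.57), *SKIL* (5.06), *SMAD6* (4.59) and *SMAD7* (3.38 CPM per kb) were lowest. *BAMBI* and *SKIL* differed by less than the SD of *BAMBI*, 1.70. *ID1*, *ID2* and *ID3* were thus the abundant members at both stages, and the inhibitory SMADs the scarce ones.

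The knockout was checked first. *ALKBH5* mRNA was at 78.8 and 81.9 TPM in WT hILOs and at 4.16 and 3.42 TPM in A5-KO hILOs, and at 149 and 172 CPM in WT PPs against 19.1 and 18.8 CPM in A5-KO PPs at 0 h. In WT PPs *ALKBH5* mRNA itself fell with Act D, to 48.3 and 33.7 CPM at 3 h. The 16 PP libraries held between 30516384 and 35206514 reads. TPM keeps no depth, so the depth of hILOs is unknown. All 6 pancreatic progenitor markers (such as *PDX1* and *SOX9*) were detected in every group at 0 h, with a summed level of 711–925 CPM in WT against 645–742 CPM in A5-KO. Markers of other cells differed between the genotypes before Act D. The summed level of 6 hepatic markers (*ALB*, *AFP* and others) was 768–779 CPM in WT PPs against 1654–1696 CPM in A5-KO, with 6 of 6 higher in both A5-KO libraries. The sum of 6 mesenchymal markers was 40.7–43.6 against 93.1–99.8 CPM, with 5 of 6 higher and 1 lower. The sum of 4 intestinal markers was 317–336 against 424–430 CPM, with 2 higher and 0 lower. That of 4 pluripotent markers, nearly all *LIN28A*, was 121–124 against 234–248 CPM, with 1 higher and 1 lower. The sum of 4 endothelial markers was low, 4.39–4.43 against 5.51–8.87 CPM, with 2 higher and 0 lower. In hILOs the hepatic sum was 18559–18923 against 30786–31125 TPM (4 of 6 higher, 1 lower) and the endocrine sum 34287–36624 against 26341–27547 TPM (5 of 6 lower, 1 higher). No hepatic marker was at 0 in these groups, and of the mesenchymal markers *DCN* was at 0 in the first A5-KO PP library. The part of these cells in the results on the members was not tested. In bulk RNA, more cells of a type and more RNA per cell cannot be told apart.

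In PPs before Act D, 5 of the 8 tested members were higher in A5-KO, namely *ID2*, *ID3*, *ID4*, *SMAD6* and *SMAD7*, by 1.51-fold to 1.60-fold. A gene was called at an adjusted *p* below 0.05 over all genes tested and a change over 1.5-fold, on the log2(CPM + 1) scale. No member was called lower, and *SKIL* and *TGIF1* were not called. Of all 13911 genes tested, 1.57% were called higher and 1.13% lower. The median difference of the 8 was 0.60 on the log2 scale, against 0.03 for all genes.

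*ID2*, whose protein binds and disables basic helix-loop-helix factors, was at 167 and 134 CPM in WT libraries against 266 and 214 CPM in A5-KO. *ID3*, a protein of the same kind, was at 181 and 158 CPM in WT libraries against 266 and 250 CPM in A5-KO. *ID4* was at 43.9 and 33.9 CPM in WT libraries against 68.2 and 56.9 CPM in A5-KO. Both A5-KO libraries were above both WT libraries for each of these genes, with log2 differences of 0.67 ± 0.12 (standard error), 0.60 ± 0.08 and 0.68 ± 0.14 and limma adjusted *p* values of 0.0178, 0.00428 and 0.0263. *ID1*, at 172 and 153 CPM in WT libraries against 229 and 240 CPM in A5-KO, also had an adjusted *p* of 0.00698, but its log2 difference of 0.53 ± 0.08 lay under the fold limit. *SMAD6*, which blocks BMP receptors and SMAD1, was at 17.4 and 17.7 CPM in WT libraries against 29.1 and 27.9 CPM in A5-KO (log2 difference 0.67 ± 0.11, limma adjusted *p* = 0.0128). *SMAD7*, which blocks both the BMP and the TGF-beta branch, was at 11.5 and 11.1 CPM against 18.2 and 17.0 CPM (0.60 ± 0.13, limma adjusted *p* = 0.0368), just above the fold limit. The SMAD co-repressors did not follow the other members. *SKIL* was at 38.1 and 34.4 CPM in WT libraries against 36.8 and 30.8 CPM in A5-KO, and *TGIF1* at 45.2 and 42.7 against 42.9 and 37.5 CPM, with limma adjusted *p* values of 0.695 and 0.555.

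These calls at 0 h depended on the libraries and the fit. With a replicate block, which treats same-numbered libraries as pairs, all 5 were called (limma adjusted *p* from 7.33e-09 to 0.00118). With all 16 PP libraries in one fit, none of the 5 was called (limma adjusted *p* from 0.0879 to 0.346), although their log2 differences of 0.60 to 0.68 hardly moved. Without the second WT library none was called either, and without the first A5-KO library only *SMAD6* was. *SMAD6* also lost its call without the first WT library. *SMAD7* lost its call without any of the 4 libraries. *ID3* came just under the fold limit, at 0.57, with median-of-ratios scaling, DESeq2 and edgeR, as did *SMAD7*, at 0.56, with median-of-ratios scaling. *ID1* was called without the first WT library (0.61, limma adjusted *p* = 0.0102).

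The values of the members chosen for their slopes went in opposite directions at 0 h. *BAMBI* was at 13.1 and 9.08 CPM in WT libraries against 19.2 and 15.0 CPM in A5-KO. *CHRDL1*, which holds BMP ligands away from their receptors, was at 52.0 and 48.2 CPM in WT libraries against 32.0 and 26.97 CPM in A5-KO. A5-KO PPs thus had more *BAMBI* and less *CHRDL1* mRNA, with log2 differences of 0.59 and -0.75.

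**Figure D1:**
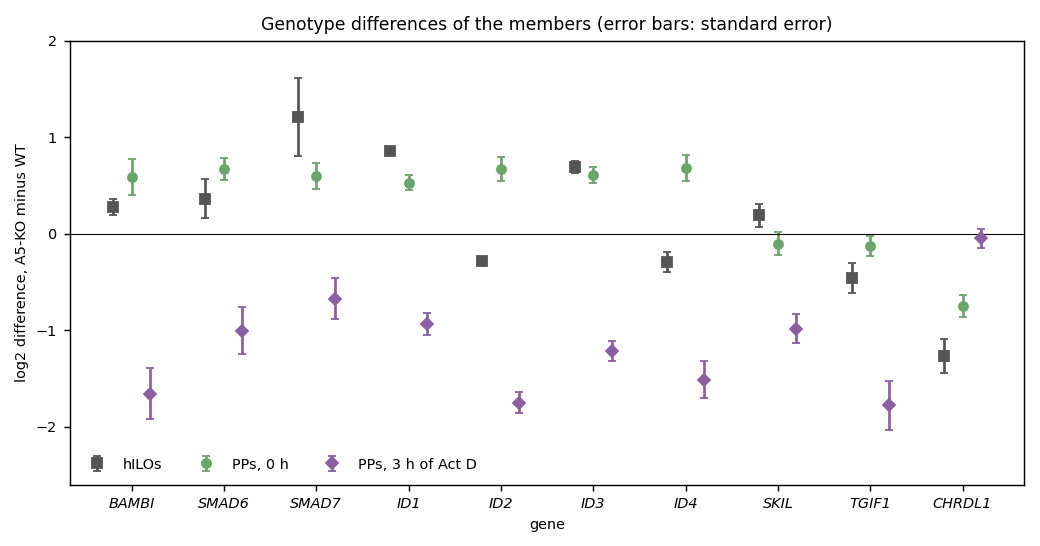
Log2 difference between A5-KO and WT (vertical axis, A5-KO minus WT, with the standard error of the limma fit) for each member in hILOs on the TPM scale (squares) and in PPs on the CPM scale at 0 h (circles) and after 3 h of Act D (diamonds), from 2 libraries for each genotype and condition. At 0 h 7 members lie above 0, whereas at 3 h all members but *CHRDL1* lie at or below -0.67. *CHRDL1* is at -0.05, and at 0.10 when libraries are scaled by median-of-ratios.

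In the first hour of Act D, the mRNA of most members fell quickly in both genotypes. In WT PPs 7 of the 8 tested members were called lower at 1 h than at 0 h and none higher, where 15.3% of the 13620 genes tested were lower and 0.206% higher. In A5-KO PPs the same 7 were lower and none was higher, against 16.7% and 1.06% of all genes. The exception in both was *SMAD6*, with limma adjusted *p* values of 0.17 in WT and 0.053 in A5-KO. The median change of the 8 was -1.29 in WT and -1.27 in A5-KO on the log2 scale, and that of all genes -0.12 and -0.14. Median-of-ratios scaling moved the latter to 0.01 and -0.01, and the share of calls that were higher in A5-KO from 5.9% to 22%. *ID2* in WT lost its call in every alternative tried, with limma adjusted *p* values from 0.0504 to 0.336. In A5-KO *ID2* and *ID3* lost theirs without the first library at 0 h or at 1 h, with limma adjusted *p* values up to 0.206 and 0.0684, and without the filter on low values (0.108 and 0.0508). *ID2* in A5-KO also came under the fold limit with median-of-ratios scaling (-0.52) and in edgeR (-0.51).

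The share of the 0 h level left at 1 h ordered the members. *SMAD7* fell furthest, from a mean of 11.3 CPM to 1.201 and 1.789 CPM in WT and from 17.6 CPM to 1.96 and 2.63 CPM in A5-KO. That left 13.2% ± 3.68 in WT and 13.01% ± 2.70 in A5-KO. *BAMBI*, a receptor-like protein with no kinase that blocks the assembly of active receptors, was left at 19.4% ± 4.48 and 24.5% ± 2.19. *ID4* was left at 21.5% ± 0.464 and 26.7% ± 0.162, and *TGIF1* at 25.6% ± 1.41 and 26.3% ± 0.987. A slower group came next. *SKIL* was left at 39.2% and 40.1% of its 0 h level, *ID1* at 40.7% and 41.0%, and *ID3* at 49.6% and 57.5% (WT and A5-KO). *SMAD6* at 65.1% and 57.8% and *ID2* at 65.4% and 62.6% fell least among the response genes. *CHRDL1* did not fall, with 111% ± 4.46 in WT and 109% ± 24.0 in A5-KO. For comparison, the median gene was left at 90.4% and 91.6% in the WT libraries and at 91.8% and 86.8% in the A5-KO libraries. Because CPM is relative to a total that itself falls under Act D, these shares are not absolute amounts.

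Between 1 and 3 h the genotypes parted. Compared with 1 h, most members were higher at 3 h in WT and lower at 3 h in A5-KO. The WT libraries at 2 h disagreed on the course between these times. *ID3* in WT was at 81.0 and 87.3 CPM at 1 h, 58.7 and 118 CPM at 2 h and 101 and 121 CPM at 3 h. In A5-KO the means of *SKIL* (8.60 and 9.04 CPM) and *SMAD7* (1.45 and 1.78 CPM) did not fall from 2 h to 3 h. Both WT libraries at 3 h were above both at 1 h for 7 of the 10 members (*ID1*, *ID3*, *ID4*, *BAMBI*, *SMAD7*, *SKIL* and *TGIF1*), and 24.7% of all genes showed this. Only *CHRDL1* was below in both, as were 11.3% of all genes. In A5-KO both 3 h libraries were below both 1 h libraries for 8 members, all but *SMAD7* and *CHRDL1*, and 45.7% of all genes showed this. *CHRDL1* was above in both, as were 18.6% of all genes. The course was not limited to the members. The summed pancreatic progenitor markers went from 220–255 CPM at 1 h to 263–284 CPM at 3 h in WT. In A5-KO they went from 223–228 to 58.3–67.6 CPM. Not every marker turned in WT, as *ONECUT1* went from 13.9 and 13.5 to 8.50 and 8.91 CPM. The members were not compared with other short-lived mRNAs as a set.

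*ID4* shows the course. In WT it went from 8.24 and 8.49 CPM (1 h) to 15.1 and 18.4 CPM (3 h), whereas A5-KO went from 16.6 and 16.8 CPM to 6.08 and 4.39 CPM. So A5-KO had more *ID4* mRNA than WT at 1 h and less at 3 h, with no overlap at either time. *ID2* went from 94.2 and 103 to 101 and 120 CPM in WT, with overlap between the times, and from 137 and 163 to 34.0 and 29.9 CPM in A5-KO. *ID3* went from 81.0 and 87.3 to 101 and 121 CPM in WT and from 138 and 159 to 48.8 and 45.6 CPM in A5-KO. *ID1* went from 63.4 and 68.9 to 92.3 and 106 CPM in WT and from 86.6 and 106 to 56.01 and 47.11 CPM in A5-KO. All 4 *ID* mRNAs thus ended lower in A5-KO than in WT, with no overlap between the libraries at 3 h.

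The test of this difference, the change from 1 to 3 h in A5-KO minus that in WT, called 7 of the 8 tested members lower and none higher, where 15.4% of all genes were lower and 1.22% higher. The median of the 8 was -1.59 on the log2 scale, against -0.17 for all genes. With median-of-ratios scaling the latter was -0.02, and the share of calls that were higher went from 7.3% to 22.7%. *ID4* had the largest difference at -2.43 ± 0.31 (limma adjusted *p* = 0.000565), then *ID2* at -2.35 ± 0.29 (0.000565), *ID3* at -2.02 ± 0.29 (0.00083), *TGIF1* at -1.69 ± 0.39 (0.00801), *SMAD6* at -1.49 ± 0.41 (0.0196), *ID1* at -1.46 ± 0.24 (0.00132) and *SKIL* at -0.92 ± 0.21 (0.00641), each with its limma adjusted *p*. *SMAD7* was not called (-1.08 ± 0.43, limma adjusted *p* = 0.0885). The calls of *ID1*, *ID2*, *ID3*, *ID4* and *SKIL* held in all 14 alternatives of this comparison. *SMAD6* lost its call without the first library at 1 h of either genotype, without the second WT library at 3 h, without the second A5-KO library at 3 h or without the filter on low values (limma adjusted *p* up to 0.113). *TGIF1* lost it without the second A5-KO library at 3 h (0.0513) or without that filter (0.062).

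**Figure D2:**
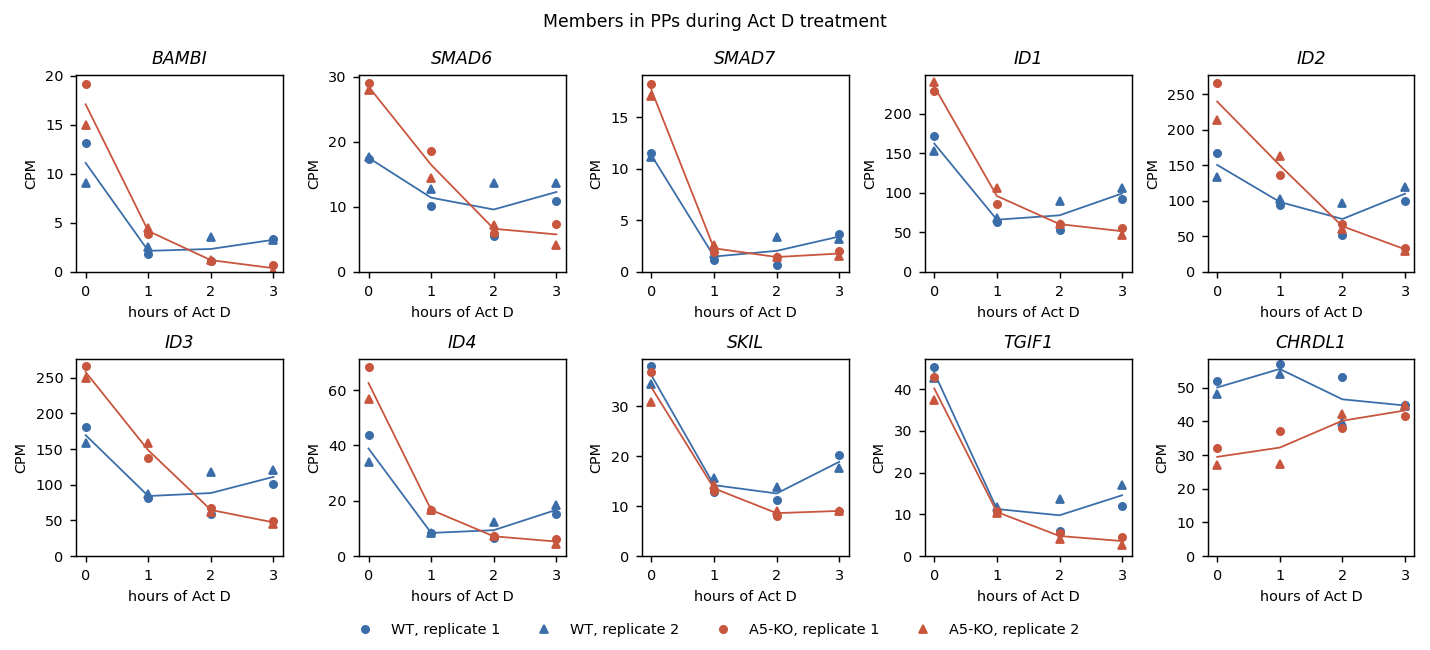
CPM (vertical axes, from 0) of the 10 members in PPs against hours of Act D (horizontal axes) for each WT (blue) and A5-KO (red) library, with circles for replicate 1, triangles for replicate 2 and lines through the means of 2 libraries. Most response genes start higher in A5-KO and end lower, while *CHRDL1* starts lower in A5-KO (29.5 against 50.1 CPM) and meets WT at 3 h (43.3 against 44.7 CPM).

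After 3 h of Act D all 8 tested members were called lower in A5-KO than in WT, where 16.6% of the 13444 genes tested were lower and 1.07% higher. The median difference of the 8 was -1.11 on the log2 scale and that of all genes -0.12. Of the genes called, 6.1% were higher, and 17.6% when libraries were scaled by median-of-ratios, which moved the median of all genes to 0.01. *TGIF1*, which recruits histone deacetylases to SMAD2 and SMAD3, was at 12.0 and 17.1 CPM in WT libraries against 4.63 and 2.56 CPM in A5-KO (-1.78 ± 0.26, limma adjusted *p* = 0.00137). *ID2* differed by nearly as much (-1.75 ± 0.11, limma adjusted *p* = 7.42e-05). *SKIL*, a SMAD co-repressor degraded and then re-induced by TGF-beta, was at 20.2 and 17.6 CPM in WT libraries against 8.98 and 9.11 CPM in A5-KO (-0.98 ± 0.15, limma adjusted *p* = 0.00161). For *SKIL* and *TGIF1* no genotype difference was called at 0 h, and for both a difference was called after Act D. *SMAD6* was at 10.9 and 13.7 CPM in WT libraries against 7.36 and 4.21 CPM in A5-KO (-1.004 ± 0.24, limma adjusted *p* = 0.0139). *SMAD7* was at 3.64 and 3.22 CPM against 1.99 and 1.58 CPM (-0.67 ± 0.22, limma adjusted *p* = 0.0463).

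Cell type markers also differed at 3 h. Of the pancreatic progenitor markers, 6 of 6 were lower in both A5-KO libraries (summed level 58.3–67.6 against 263–284 CPM). *PTF1A* was at 0 in A5-KO and barely detected in WT (0.0298 and 0.0316 CPM). Before Act D the same sum had been 645–742 against 711–925 CPM, so it fell in both genotypes during the treatment. The progenitor sum at 3 h therefore cannot be read as a share of cells. Of the hepatic markers, 6 of 6 were higher (1911–2037 against 1162–1313 CPM). The part of cell types in the result was not tested. The *ID1*, *ID2*, *ID3*, *ID4* and *SKIL* calls at 3 h held in all 12 alternatives. *SMAD7* lost its call in 10 of 11, with limma adjusted *p* values up to 0.299. *SMAD6* lost its call without the second A5-KO library (0.126) or the filter on low values (0.141), and *TGIF1* without that filter (0.0533). The comparisons at 0 h, at 3 h and from 1 to 3 h share libraries and are not independent of one another.

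*BAMBI*, given as a description, was left at 3.34 and 3.22 CPM (112 and 102 reads) in WT at 3 h. In A5-KO it was left at 0.682 CPM (24 reads) and 0.0949 CPM, which is 3 reads with an exact 95% Poisson interval of 0.0196 to 0.277 CPM for counting error. In percent of the 0 h level, that was 29.5% ± 0.754 in WT and 2.27% ± 2.43 in A5-KO. The other response genes were left at 30.4% (*SMAD7*) to 73.1% (*ID2*) in WT and at 8.37% (*ID4*) to 26.8% (*SKIL*) in A5-KO. *CHRDL1* stood at 89.3% ± 0.058 in WT and 147% ± 7.88 in A5-KO. The median gene was left at 92.5% and 93.3% in the WT libraries and 84.9% and 82.0% in the A5-KO libraries.

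**Figure D3:**
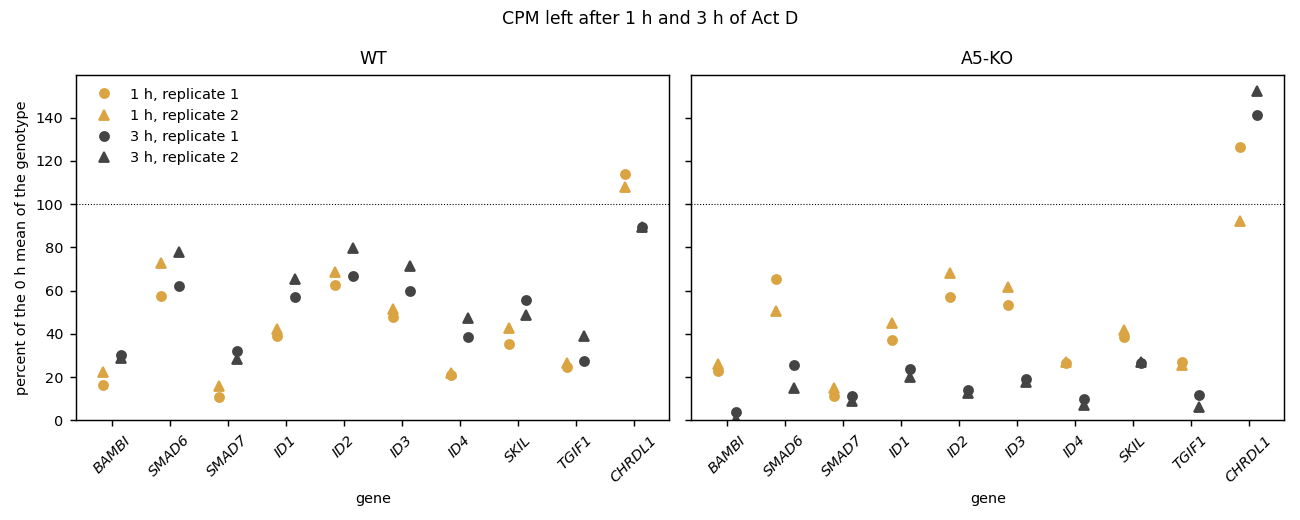
CPM left after 1 h (yellow) and 3 h (grey) of Act D in percent of the mean at 0 h of the same genotype (vertical axis) for each member in WT (left) and A5-KO (right), with circles for replicate 1 and triangles for replicate 2. In WT the 3 h points lie at or above most 1 h points, as for *ID4* (43.0% against 21.5%), and in A5-KO they lie below (8.37% against 26.7%) except for *SMAD7* and *CHRDL1*.

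A single decay slope through 0, 1, 2 and 3 h summarises these courses less well, because the WT values turn. On this measure *ID2* and *ID3* had steeper slopes in A5-KO (differences of -0.81 ± 0.14 and -0.67 ± 0.15 log2 units per hour, limma adjusted *p* = 0.0356 and 0.0409). None of the 8 tested members was called shallower, and *CHRDL1*, which was chosen for its slope and not tested, had a difference of 0.28. Of all genes 2.61% were called steeper and 0.0661% shallower. *SMAD6* (adjusted *p* = 0.0613), *ID4* (0.0997), *ID1* (0.105), *TGIF1* (0.162), *SKIL* (0.329) and *SMAD7* (0.507) were steeper in A5-KO in the estimate but not called by limma. Both calls were unstable. *ID2* lost its call in 10 of 16 fits with 1 library left out and *ID3* in 14 of 16, with limma adjusted *p* values up to 0.131 and 0.149. With only the 0 and 1 h libraries, the slope differences of *ID2* (-0.07) and *ID3* (0.21) were not called, with limma adjusted *p* values of 0.912 and 0.586. With the 0 and 3 h libraries alone all 8 were called steeper.

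The half-lives fitted for each replicate differed widely in WT. Each fit joined libraries of the same replicate number over the times, a pairing across times that was not checked. *ID2* had half-lives of 2.18 and 7.82 h in the WT replicates and of 1.01 and 1.12 h in the A5-KO replicates. *ID3* had 2.02 and 4.88 h against 1.14 and 1.16 h, and *ID4* 1.12 and 1.86 h against 0.741 and 0.748 h. The shortest were those of *BAMBI*, 0.907 and 1.58 h in WT libraries against 0.584 and 0.508 h in A5-KO, and those of *SMAD7*, 0.888 and 1.25 h against 0.714 and 0.711 h. *CHRDL1* had 31.4 and 20.0 h in WT and no decrease in A5-KO. These half-lives come from CPM, relative to a total that itself falls under Act D, so they are not absolute. They cannot be set against the half-lives of the study, whose values were converted by spike-ins. The WT replicates parted at 2 h. There the first WT library was low and close to A5-KO, and the second was high and close to WT at 3 h, as for *ID3* at 58.7 and 118 CPM against 66.9 and 62.3 CPM in A5-KO. The summed pancreatic progenitor markers of these WT libraries differed in the same way, 145 and 337 CPM. Without the 2 h time point, 3 of the 8 members were called steeper.

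The genes whose courses in the 16 PP libraries were most like that of *BAMBI*, by Pearson correlation of log2(CPM + 1) among 8920 genes, were *HHEX* (0.987), *CEBPG* (0.987) and *LINC00511* (0.985). *HHEX* encodes a homeodomain factor of the foregut endoderm. Those most like *CHRDL1* were *LYZ* (0.943), *SORCS1* (0.936) and *GPC6* (0.930). The 16 points share genotypes and times, so the correlations are descriptions.

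In hILOs all 10 members were tested, and 2 were higher and 1 lower in A5-KO. The hILO values did not enter the PP decay slopes by which *BAMBI* and *CHRDL1* were chosen. The members as a whole were chosen with earlier results of these data known. The background was 2.7% higher and 4.09% lower of 17300 genes, and a change is on the log2(TPM + 1) scale. *ID1* was at 169 and 175 TPM in WT libraries against 306 and 316 TPM in A5-KO (0.85 ± 0.04, limma adjusted *p* = 0.00352). *ID3* was at 136 and 124 TPM against 217 and 204 TPM (0.69 ± 0.06, limma adjusted *p* = 0.0112). *CHRDL1* was at 6.34 and 5.17 TPM in WT libraries against 1.93 and 1.68 TPM in A5-KO (-1.27 ± 0.18, limma adjusted *p* = 0.0244). The direction for these 3 genes was that of untreated PPs. The *ID1* call held in all 9 alternatives, whereas *ID3* and *CHRDL1* lost theirs without any of the 4 libraries (limma adjusted *p* up to 0.0667 and 0.117) and without the filter on low values.

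The other members were not called in hILOs. *ID2* was at 300 and 316 TPM in WT libraries against 254 and 251 TPM in A5-KO, a small difference of -0.29 ± 0.04 whose limma adjusted *p* of 0.0259 passed but whose size did not. *ID4* was at 13.5 and 12.1 against 10.4 and 10.1 TPM (-0.30 ± 0.10, limma adjusted *p* = 0.151). *ID2* and *ID4* thus lay in the other direction from PPs at 0 h, and that difference between the stages was not tested. *SMAD7* was at 0.801 and 2.86 TPM in WT libraries against 5.00 and 5.18 TPM in A5-KO, and with the WT libraries so far apart its log2 difference of 1.21 ± 0.41 had a limma adjusted *p* of 0.137. *BAMBI* was at 20.7 and 19.9 TPM against 25.8 and 23.6 TPM (0.27 ± 0.08, limma adjusted *p* = 0.114). *SMAD6* was at 2.89 and 2.01 against 3.49 and 3.31 TPM, *SKIL* at 5.63 and 5.66 against 6.61 and 6.57 TPM, and *TGIF1* at 13.4 and 15.9 against 9.22 and 11.5 TPM, with limma adjusted *p* values of 0.301, 0.349 and 0.136.

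**Figure D4:**
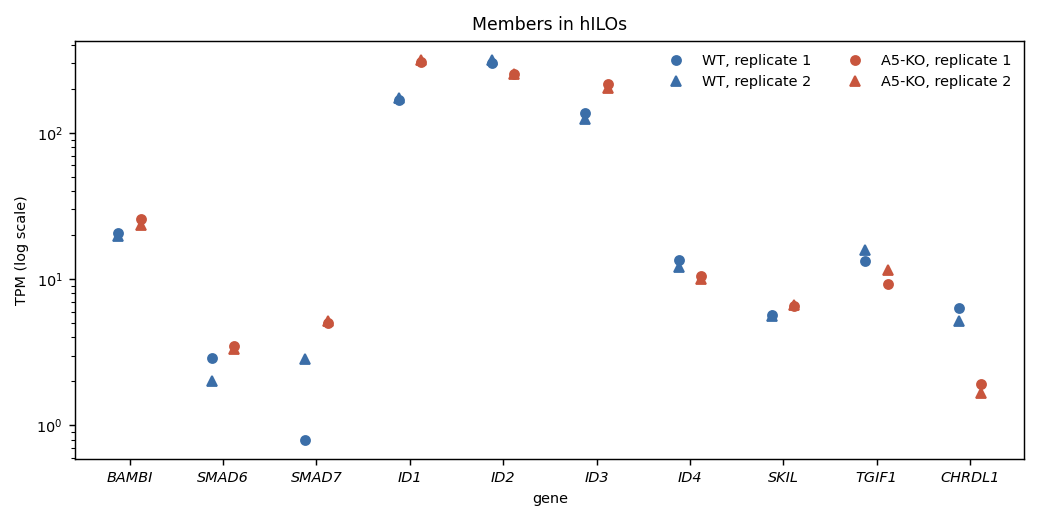
TPM in hILOs (vertical axis, log scale) of the 10 members for each WT (blue) and A5-KO (red) library, with circles for replicate 1 and triangles for replicate 2. *ID1* and *ID3* lie higher and *CHRDL1* lower in A5-KO (1.68 to 1.93 against 5.17 to 6.34 TPM), and the WT libraries of *SMAD7* lie apart (0.801 and 2.86 TPM).

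The rest of the pathway was described with 54 other genes in 5 lists. In hILOs 5 of the 39 tested were lower and 3 higher in A5-KO, against 4.09% and 2.7% of all genes. The activin-binding antagonist *FST* (follistatin) rose from 2.06 and 2.97 TPM to 16.6 and 16.3 TPM (2.32 ± 0.17, limma adjusted *p* = 0.00751). Its relative *FSTL3* fell from 28.3 and 32.6 to 14.9 and 14.4 TPM (-1.01 ± 0.10, 0.0123 by limma). The Nodal antagonists *LEFTY1* (44.01 and 43.77 against 14.9 and 13.4 TPM) and *LEFTY2* (3.43 and 6.90 against 0.600 and 0.942 TPM) were lower, with log2 differences of -1.57 and -1.75. Of the 7 extracellular antagonists tested, 3 were thus lower and 1 higher, and none of the 12 receptors was called. The ligand *TGFB3* was also lower, at 3.25 and 3.50 TPM against 1.446 and 1.103 TPM.

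In PPs at 0 h, 2 of the 38 tested pathway genes were lower and 1 higher, against 1.13% and 1.57% of all genes. The one that was higher was the BMP ligand *BMP4*, at 5.97 and 3.97 CPM in WT libraries against 17.6 and 14.6 CPM in A5-KO (1.53 ± 0.19, limma adjusted *p* = 0.00226). *TGFB1*, at 55.3 and 55.4 against 30.5 and 35.7 CPM, and *BMP6*, at 24.0 and 24.9 against 15.2 and 14.8 CPM, were lower, with log2 differences of -0.73 and -0.67 (limma adjusted *p* = 0.00582 and 0.0156). The receptors, SMADs, extracellular antagonists and intracellular repressors had no call.

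During Act D part of the other pathway genes fell. In the first hour 9 of 37 fell in WT, where 15.3% of all genes did, and in A5-KO 13 fell and 1 rose, where 16.7% and 1.06% of all genes did. The rest were not called. Those that fell in both genotypes included *BMP2*, the type II receptor genes *TGFBR2* and *ACVR2A* and the ubiquitin ligase gene *SMURF1*. *BMP2* was at 41.3 and 32.3 CPM at 0 h, 7.29 and 8.43 CPM at 1 h and 14.77 and 13.05 CPM at 3 h in WT, and at 46.1 and 37.3, 11.7 and 10.2, and 2.73 and 2.66 CPM in A5-KO. It therefore had the same turn in WT as *ID4* and none in A5-KO. At 3 h 18 of 37 were lower in A5-KO and none higher, against 16.6% and 1.07% of all genes. Those that were lower included *BMP2* (-2.01 ± 0.18, limma adjusted *p* = 0.000195), *TGFBR2* (-1.52), *ACVR2A* (-1.25), *SMAD1* (-1.25) and *GDF15* (-1.23). They comprised 5 of 6 receptor SMADs and SMAD4, 6 of 12 receptors, 4 of 5 intracellular repressors, 3 of 9 ligands and none of 5 extracellular antagonists. In the change from 1 to 3 h, 15 of 37 were lower in A5-KO than in WT and 1 was higher (15.4% and 1.22% of all genes), with *BMP2* (-2.45), *BMP4* (-1.88), *ACVR2A* (-1.54), *SMAD1* (-1.50) and *TGIF2* (-1.41) furthest. The slopes of *BMP4*, *SMAD1*, *BMPR1B*, *TGIF2* and *SMAD4* were called steeper in A5-KO (5 of 37, and 2.61% of all genes). The median differences of all pathway genes at 0 h, at 3 h and in the change from 1 to 3 h were -0.05, -0.55 and -0.51 on the log2 scale, against 0.60, -1.11 and -1.59 for the 8 tested members and 0.03, -0.12 and -0.17 for all genes.

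**Figure D5:**
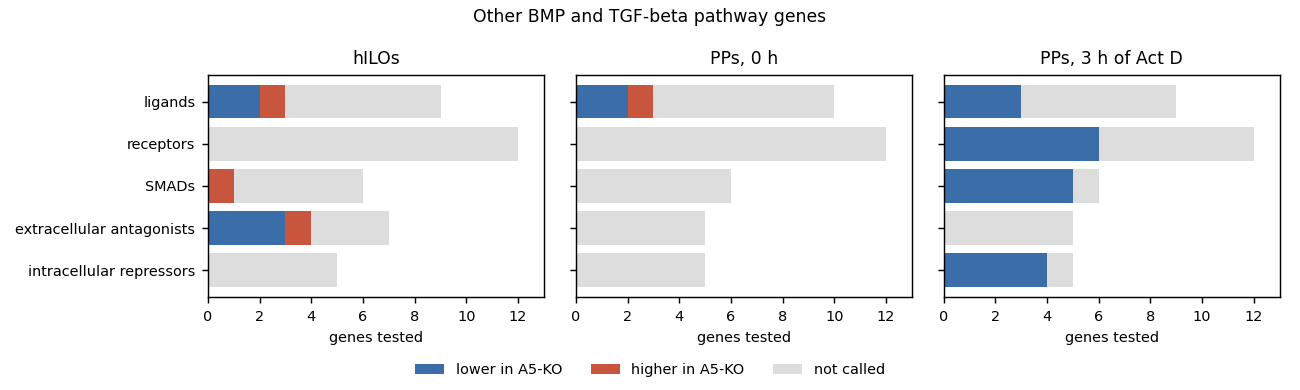
Number of tested genes (horizontal axis, from 0) in 5 lists of other BMP and TGF-beta pathway genes that were lower (blue), higher (red) or not called (grey) in A5-KO against WT, in hILOs, in PPs at 0 h and in PPs after 3 h of Act D. After 3 h the calls are all lower, 18 of 37, while the 5 extracellular antagonists have none.

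Positions in GRCh38 are chromosome 10, 28677510 to 28682932 for *BAMBI* (3 exons), chromosome 15, 66702236 to 66782849 for *SMAD6* (4 exons) and chromosome 18, 48919853 to 48950965 for *SMAD7* (4 exons). *ID1* lies on chromosome 20, 31605283 to 31606515, *ID2* on chromosome 2, 8678845 to 8684461, *ID3* on chromosome 1, 23557926 to 23559501, and *ID4* on chromosome 6, 19837370 to 19842197. *SKIL* lies on chromosome 3, 170357342 to 170396835, *TGIF1* on chromosome 18, 3411608 to 3459978, and *CHRDL1* on chromosome X, 110673856 to 110795819. *SMAD7*, *ID3* and *CHRDL1* are on the minus strand. Of the 10, only *ID2* shares exon bases with another annotated gene, 145 of 2213 bases with the antisense *ID2-AS1*. Use of strand in the counting is not given in the sources used here, so reads in those bases cannot be assigned.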

How the data were processed

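For hILOs the authors trimmed reads with fastp, aligned them to hg38 with HISAT2 (version 2.1.0 in the submitters' processing notes) and deposited TPM for each gene from StringTie. For PPs they deposited CPM for each gene after the spike-ins were removed. The annotation release, the read counter and its use of strand are not given in the sources used here. The CPM were whole multiples of the value of 1 read, so reads were recovered (100% of values were whole within 0.01 in each library).

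Genes with a mean of at least 1 were fitted on log2(value + 1) with limma 3.58.1 (R 4.3.3, eBayes with trend), over the 4 libraries of hILOs, of PPs at 0 h and of PPs at 3 h, and over 16 PP libraries for changes with time. Decay slopes used log2(CPM + 0.1). Calls needed a Benjamini-Hochberg adjusted *p* below 0.05 over all genes tested and, except for slopes, a change over 1.5-fold. edgeR 4.0.16 and DESeq2 1.42.0 on recovered reads, the pseudocount, the filter, the scaling, the replicate block and each library left out were alternatives. On recovered reads, edgeR called 205 genes lower and 228 higher at 0 h, and 1786 and 356 at 3 h. The code was tested on simulated data.

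The members and lists were chosen with earlier results of these data known. Of the pathway lists, at most 5 called genes with the largest change are named per comparison, and for *BAMBI* and *CHRDL1* the 3 most correlated genes above a mean of 10 CPM. The conversion by spike-ins and the m6A peaks were not used here. Promoter windows come from RefSeq, other annotation from GENCODE.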

Additional observations from a re-analysis of the deposited data

Results flagged for a closer look

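The change from 1 to 3 h of Act D differed between the genotypes for 7 members in limma, with log2 differences (A5-KO minus WT) of -2.43 for *ID4*, -2.35 for *ID2*, -2.02 for *ID3*, -1.69 for *TGIF1*, -1.49 for *SMAD6*, -1.46 for *ID1* and -0.92 for *SKIL*. Leaving out 1 library could remove the *SMAD6* or the *TGIF1* call. Decay slopes differed for *ID2* by -0.81 and for *ID3* by -0.67 log2 units per hour, again by a test of the difference itself. Both slope calls were unstable. They were lost with 1 library left out in 10 of 16 fits for *ID2* and 14 of 16 for *ID3*, and with the replicate block.

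The genotype difference of *ID2* was 0.67 in PPs at 0 h and -0.29 in hILOs, and that of *ID4* was 0.68 and -0.30. Every A5-KO library lay above every WT library in PPs and below in hILOs, and the difference between the stages was not tested.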

How the results depend on the processing

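With 2 libraries per group, 1 library can decide a call, and TPM keeps no depth. Replicate numbers were not used as pairs in the main fits. Same-numbered libraries deviated together weakly in PPs at 0 h (correlation 0.18) and not at the later times or in hILOs (-0.059 to -0.005). Pairing at 0 h is therefore not excluded. With the replicate block, 0 members were lower in hILOs and 0 steeper in slope. Over all genes it gave 385 lower and 289 higher in hILOs (707 and 467 without it), 266 and 365 at 0 h (157 and 218), and 0 and 0 by slope (355 and 9; 2912 at an unadjusted limma *p* below 0.05). Without the filter on low values, members called were 0 lower and 1 higher in hILOs, 2 higher at 0 h, 5 lower at 3 h and 0 by slope. With a mean of at least 10 they were 0 lower in hILOs and 5 lower at 3 h, since fewer were tested. At 0 h, 3 were higher with median-of-ratios scaling and 0 with all 16 PP libraries in one fit. By slope, 0 were steeper at 0 and 1 h alone, 8 at 0 and 3 h alone, and 3 without the 2 h time point, an alternative chosen after seeing the data. With 1 library left out, members called ranged from 0 to 0 lower and 1 to 1 higher in hILOs, from 0 to 4 higher at 0 h, and from 0 to 5 by slope, with 5 without the first WT library at 0 h or at 2 h. The causes were not tested. All-gene counts moved by over 1.5 times without the filter (lower and higher: hILOs 187 and 143, 0 h 77 and 87, 3 h 985 and 55 against 2234 and 144, slope 0 and 0 with 3843 at an unadjusted limma *p* below 0.05, 1 to 3 h 1038 and 71 against 2098 and 166), with a mean of at least 10 (430 and 301 in hILOs, 93 and 101 at 0 h, 1280 and 76 at 3 h), for slopes steeper (165 with a pseudocount of 1, 91 by median-of-ratios, 3 at 0 and 1 h, 2739 at 0 and 3 h, 708 without 2 h), and with 1 library left out (72 to 203 lower in hILOs, 0 to 1442 steeper). Higher calls at 3 h were 353 by median-of-ratios, 358 by DESeq2 and 356 by edgeR. Reversed estimates were those of *CHRDL1* at 3 h (0.0976 by median-of-ratios, 0.1012 by DESeq2, 0.0917 by edgeR, -0.1019 to 0.0053 with 1 library left out) and in the first hour in A5-KO (-0.1051 to 0.3321), of *SKIL* at 0 h (-0.2265 to 0.0229), and of slopes at 0 and 1 h alone for *ID1* (0.0013), *ID3* (0.2077), *ID4* (0.2983), *BAMBI* (0.3106), *SKIL* (0.0423), *TGIF1* (0.0401) and *CHRDL1* (-0.0339). Of 904 alternative values of single members, 767 were counted as unchanged. For tested members this meant the same direction and the same side of the threshold. For *BAMBI* and *CHRDL1* in PPs, which had no test, it meant the same direction and a small shift relative to the standard error.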

Other observations

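*ALKBH5* mRNA in WT PPs fell during Act D, from 149 and 172 CPM at 0 h to 133 and 125 CPM at 1 h, 107 and 83.4 CPM at 2 h and 48.3 and 33.7 CPM at 3 h. It was lower at 3 h than at 1 h, where most of the response genes in the same libraries were higher.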
